A study of Rattus norvegicus with 24 samples.

Results

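The response of INS-1 cells to GLP-1 after 6 h was measured in 8 of the 24 libraries of the study, 4 from cells treated with GLP-1 and 4 from Control cells, all collected at 6 h. The 8 libraries were taken by their titles, and the genes were those of the deposited table of this pair of groups with a mean normalised read count of at least 10, which left 12641 of 26404 identifiers. INS-1 is an insulin-secreting line from a rat insulinoma, so the cells are dividing tumour cells of 1 line and not islet beta cells. Cells of both groups were held for 90 min at 3 mM glucose and then given medium with 11 mM glucose. GLP-1 was then added at 100 nM, and the Control cells received the vehicle, DMSO. The study's other groups received the same treatments for 1 h or the compound BMS-21. All cells were on 11 mM glucose during the treatment, so each difference below is one between GLP-1 and vehicle at that glucose level, not at the 3 mM level of the preincubation. RNA was extracted from wells and not from sorted cells, so fewer cells expressing a gene and less RNA per cell cannot be told apart. The labels number 4 replicates for each group and do not say whether they came from separate cultures, so p-values measure the spread between these samples, which may be technical.

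GLP-1 is an incretin hormone released by the gut after a meal. Its receptor on beta cells couples to the stimulatory G protein Gs, which raises cyclic AMP. Cyclic AMP acts through protein kinase A and the EPAC exchange factors, raises insulin release when glucose is high, and switches on genes through CREB and its CRTC coactivators, among them genes that restrain the pathway again.

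The 6 h libraries held 11447243 to 12742638 reads in genes, and 3 reads, the upper limit that a count of 0 allows, came to 0.235 to 0.262 RPM. Beta-cell genes were present in every library: 15 of 18 listed markers were in the table, with summed normalised reads of 214101 to 225916 in Control and 230684 to 246461 with GLP-1. Genes that mark other islet cells summed to 115 to 141 in Control and 139 to 147 with GLP-1, most of it from Gcg (means of 104 and 120.1) and the rest nearly all from Ghrl, the ghrelin gene (17.9 and 21.7), while Ppy and Irx2 were at 0 in all 8 libraries. Acinar and duct markers summed to 729 to 883 in Control and 669 to 758 with GLP-1, nearly all from Krt7, a keratin of duct cells, and markers of endothelial, stromal and immune cells to 51.6 to 57.0 in Control and 59.8 to 111 with GLP-1. Kdr, a VEGF receptor, gave a mean of 20.1 of these reads in Control and 51.9 with GLP-1, and Vwf, the next highest, 16.4 and 11.7. Amy2a3, Cela1, Ptf1a, Cdh5 and Cd3e were at 0 in all 8 libraries. The first principal component within groups, 27.7% of the variance, set replicates 1 and 2 apart from replicates 3 and 4 in both groups, and the labels give no name to that split.

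GLP-1 changed a large share of the transcripts by small amounts. Of the 12641 genes, 2044 (16.2%) were higher and 1967 (15.6%) were lower with GLP-1, 31.7% in all (limma, Benjamini-Hochberg adjusted p under 0.05). Scaling to library totals in place of the authors' size factors gave 1453 higher and 2965 lower. On the authors' scale the GLP-1 libraries summed to a mean of 12294400 normalised reads and the Control libraries to 11848500. The median fold of the genes that rose was 1.21 and that of the genes that fell was 1.23, and 82.9% of the 4011 genes changed less than 1.5-fold. A change of at least 2-fold was found for 138 genes (1.09%) that rose and 54 (0.427%) that fell. In 3874 genes (30.6%) the 4 GLP-1 values all lay on the same side of the 4 Control values.

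**Figure D1:**
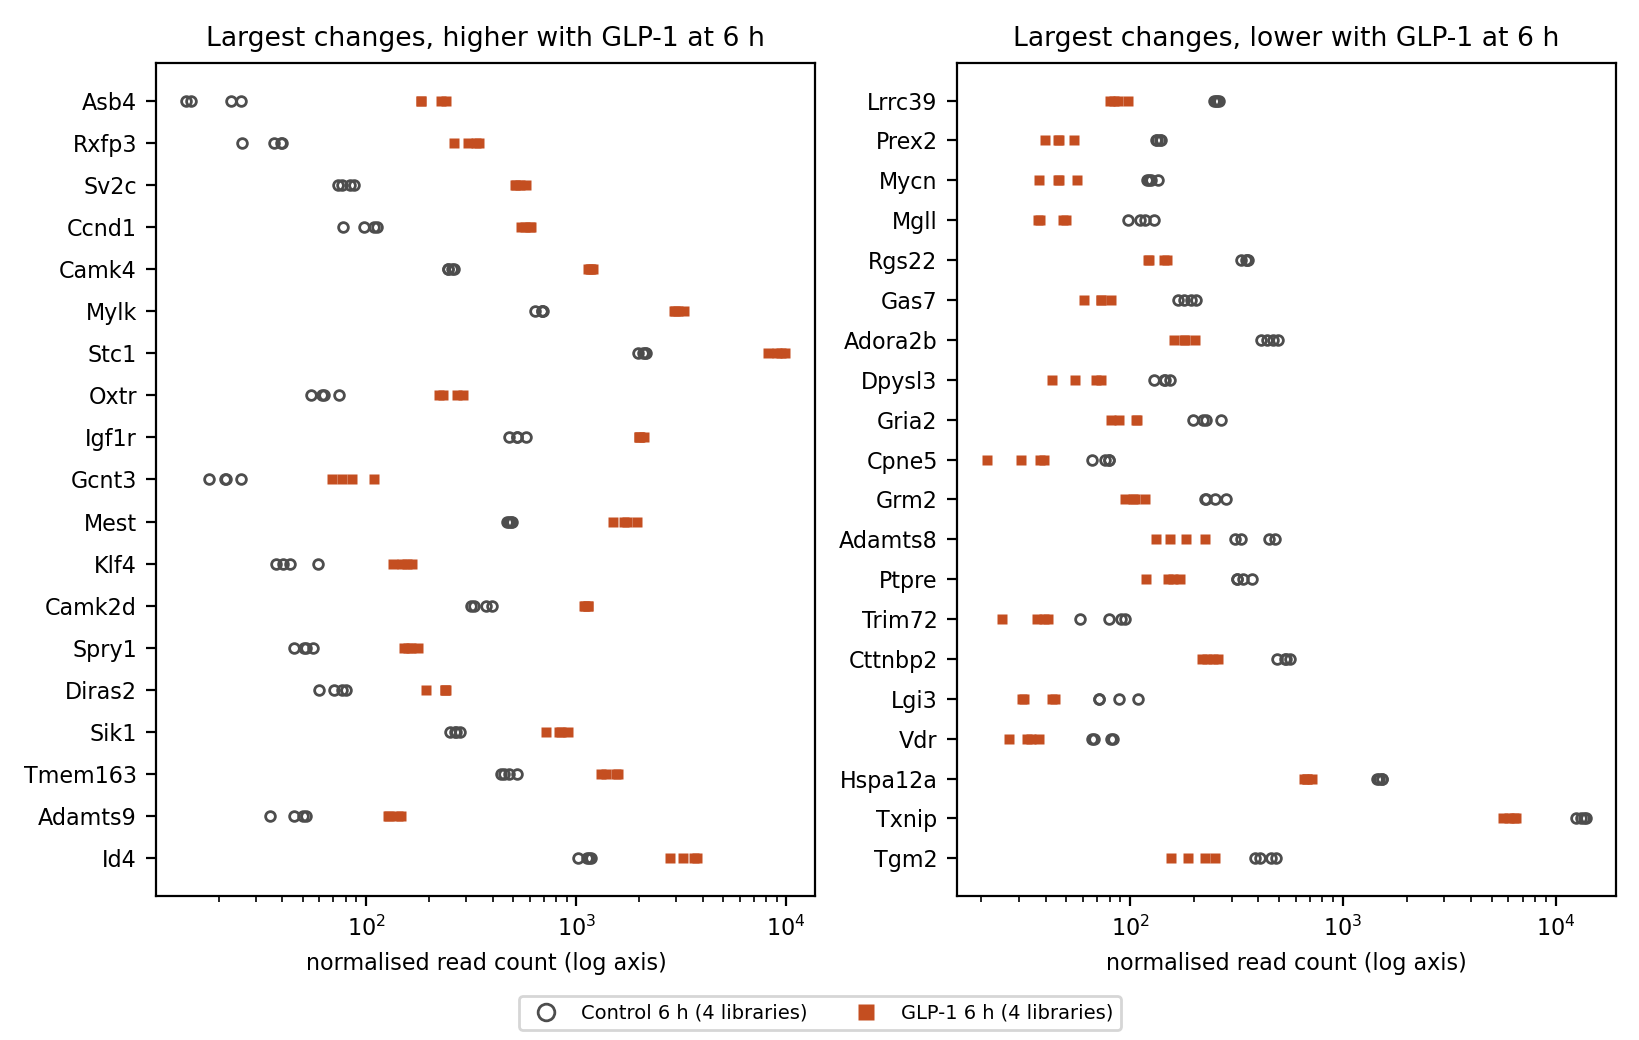
Normalised read count (log axis) of 19 of the 20 genes with the largest increase and the 20 with the largest decrease at 6 h. The genes were ranked among those with a mean of at least 50 that passed the threshold and whose 2 groups did not overlap. Open circles are the 4 Control libraries and squares the 4 GLP-1 libraries.

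Transcripts of the receptors through which the cells sense hormones moved in both directions. Of 36 tested G protein-coupled receptors and their RAMP partners 11 were higher and 10 lower, 58.3% in all against 31.7% over all genes tested. Glp1r itself, the receptor of the treatment, read 1270.5, 1266, 1326 and 1343 normalised reads in the Control libraries and 1532, 1555, 1653 and 1574 with GLP-1 (log2 fold change 0.28 ± 0.04 (SE), limma adjusted p = 9.34e-06). All GLP-1 values of Glp1r lay above all Control values, and the fold was 1.21. Gipr, the receptor of the other incretin, GIP, rose from 2500.1 ± 34.3 to 3158 ± 103 (SD, n = 4; log2 fold change 0.34 ± 0.03 (SE), limma adjusted p = 1.11e-07), while Gcgr, the glucagon receptor, fell. Gcgr read 4648, 4706, 4402 and 4599 in Control and 3312, 3272, 3163 and 3212 with GLP-1 (log2 fold change -0.50 ± 0.03 (SE), limma adjusted p = 1.65e-10), again with no overlap. Among other Gs-coupled receptors, Adora2b, the A2b adenosine receptor, read 468, 495, 411 and 442 in Control and 159.9, 201, 179 and 181 with GLP-1, a log2 fold change of -1.33 ± 0.08 (SE), limma adjusted p = 2.35e-11. Ffar1, a receptor for long-chain fatty acids that strengthens insulin secretion, had a log2 fold change of -0.80, and Ffar3, a receptor for short-chain fatty acids, of -0.89. Chrm3, the M3 muscarinic receptor that carries the vagal signal to beta cells, fell by 0.85 on the log2 scale. Receptors of the list that lower cyclic AMP through Gi moved both ways. Those that rose were Rxfp3, the relaxin-3 receptor (log2 fold change 3.12), the somatostatin receptors Sstr2 (0.77) and Sstr1 (0.51), Npy1r (0.70) and Adra2a (0.31), and Ffar3, Adora1 (-0.16) and Gabbr2 (-0.14) fell. Sstr3 (0.02), Galr1 (-0.25), Ptger3 (-0.11), Drd2 (-0.52) and Cxcr4 (0.31) did not pass. Oxtr, the oxytocin receptor, read 74.5, 61.7, 62.9 and 54.6 in Control and 288, 223, 234 and 269.9 with GLP-1. The receptors Adcyap1r1, Crhr1 and Gpr119 did not pass the threshold, with log2 fold changes of 0.07, 0.00 and -0.07.

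In the list built around the cyclic AMP signal inside the cell, more genes rose than fell. Those that rose included Creb3, Creb3l1 and Creb3l2, which belong to a separate branch of the CREB family described below. Of 16 tested members of the CREB family, the CRTC coactivators, the salt-inducible kinases and the protein kinase A inhibitors, 9 rose and 1 fell, with a median log2 fold change of 0.29 against -0.00 over all genes tested. Sik1, a kinase that phosphorylates CRTCs and keeps them out of the nucleus, read 279, 267, 251 and 265 in Control and 914, 829, 721 and 850.5 with GLP-1 (log2 fold change 1.63 ± 0.07 (SE), limma adjusted p = 6.62e-14). Crem, whose gene also encodes the short repressor ICER, read 889.8, 987, 1003 and 1077 in Control and 2489.5, 2444, 2073 and 2244 with GLP-1 (log2 fold change 1.22 ± 0.06 (SE), limma adjusted p = 6.92e-10). For both genes the lowest GLP-1 library was replicate 3, and it still lay well above every Control library. Sik2 (0.42 ± 0.04 (SE), limma adjusted p = 9.27e-08) and Sik3 (0.15 ± 0.04 (SE), limma adjusted p = 0.0106) rose as well. The coactivators Crtc1 and Crtc2 did not pass the threshold, with log2 fold changes of -0.00 and -0.04. Pkib, an inhibitor of protein kinase A, rose (0.47) and Pkia, another, fell (-0.15). Rapgef3, which encodes EPAC1, was detected at 16.1 normalised reads in Control and 25.4 with GLP-1 (log2 fold change 0.61 ± 0.21 (SE), limma adjusted p = 0.0299), while Rapgef4, which encodes EPAC2, had a log2 fold change of 0.01 and did not pass.

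Creb3l2 was the member of that list with the second smallest p, and it belongs to a branch of the family that sits in the membrane of the endoplasmic reticulum (ER) and, once cut, turns on genes of the secretory pathway. Its reads were 1104, 1132, 1186 and 1215 in Control and 1938, 1975, 2108 and 1952 with GLP-1 (log2 fold change 0.78 ± 0.04 (SE), limma adjusted p = 5.49e-12). Its relatives Creb3 (log2 fold change 0.47) and Creb3l1 (0.58) rose as well.

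Among RGS proteins, arrestins, receptor kinases and RGK GTPases that brake receptor and calcium channel signalling, 4 of 20 tested genes rose and 7 fell. Together they were 55%, against 31.7% over all genes tested. Without replicate 1 of the Control libraries the number that fell was 3. Rgs2, a GTPase activator for G alpha subunits, read 85.6, 70.8, 61.9 and 78.4 in Control and 176, 171, 149.6 and 123 with GLP-1 (log2 fold change 1.05 ± 0.12 (SE), limma adjusted p = 9.52e-07). Gem, a small GTPase that inhibits voltage-gated calcium channels, rose from 418 ± 13.0 to 683 ± 40.7 (SD, n = 4; log2 fold change 0.71). Rgs22 fell from 349 ± 11.4 to 134 ± 14.3 (SD, n = 4), and Rgs11 by 0.29 on the log2 scale. Rgs16, Rgs19 and Arrb1 did not pass, with log2 fold changes of 0.03, 0.07 and -0.12.

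The calcium/calmodulin branch held several of the most clearly separated genes. Camk4, a nuclear kinase that phosphorylates CREB, read 263, 246, 246 and 256 in Control and 1200.2, 1167, 1139 and 1182 with GLP-1 (log2 fold change 2.21 ± 0.05 (SE), limma adjusted p = 5.51e-18). Camk2d, the delta form of the kinase CaMKII, read 316, 328, 371 and 398 in Control and 1093, 1144, 1144 and 1097 with GLP-1 (log2 fold change 1.67 ± 0.06 (SE), limma adjusted p = 4.05e-14). The 4 GLP-1 libraries of each gene lay within a narrow band that no Control library approached. Pde1c, a phosphodiesterase that calcium and calmodulin switch on and that breaks down cyclic AMP and cyclic GMP, rose from 248 ± 19.6 to 600.0 ± 21.2 (SD, n = 4; log2 fold change 1.27 ± 0.06 (SE), limma adjusted p = 2.25e-12). The gene of the CaMKII inhibitor Camk2n1 fell, with 1511, 1580.5, 1415 and 1374 reads in Control and 981, 955, 871 and 814 with GLP-1 (log2 fold change -0.70 ± 0.06 (SE), limma adjusted p = 1.38e-08). Camk2b, the beta form, fell as well (-0.26), and so did the upstream kinases Camkk1 (-0.34) and Camkk2 (-0.26). Of the 20 tested genes of this list, 5 rose and 7 fell, 60% in all against 31.7% over all genes tested. Of the calcineurin regulators, Rcan1 rose (0.24) and Rcan2 fell (-0.40), and the calcineurin subunits Ppp3ca and Ppp3cb did not pass (-0.11 and -0.09).

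The ion channels that set the electrical activity of a beta cell did not move as a group. Of 56 tested potassium channel genes 13 rose and 13 fell, and of 25 tested calcium and sodium channel genes 5 rose and 8 fell. These were 46.4% and 52% in all, against 31.7% over all genes tested. Both subunits of the ATP-sensitive potassium channel, which closes when glucose is burned, rose: Kcnj11 read 1822, 1854, 1730.5 and 1685 in Control and 2158, 2154, 2181 and 2242 with GLP-1 (log2 fold change 0.30 ± 0.04 (SE), limma adjusted p = 2.26e-06), and Abcc8, the sulphonylurea receptor, had a log2 fold change of 0.16 ± 0.03 (SE), limma adjusted p = 0.00109. Kcnma1, the pore of the large-conductance calcium-activated channel, rose from 702 ± 31.3 to 1249 ± 58.6 (SD, n = 4; log2 fold change 0.83 ± 0.05 (SE), limma adjusted p = 1.38e-11). Kcnh1 rose (0.85), and Kcnab3, an accessory subunit (-0.95), and Kcnk16, the TALK-1 leak channel (-0.43), fell. The L-type calcium channel genes moved in opposite directions. Cacna1d, which encodes CaV1.3, read 1755, 1779, 1799 and 1828 in Control and 2351, 2365, 2594 and 2522 with GLP-1 (log2 fold change 0.46 ± 0.04 (SE), limma adjusted p = 7.19e-09). Cacna1c, which encodes CaV1.2, read 1002, 982, 1061 and 1033 in Control and 647, 642, 680.5 and 696 with GLP-1 (log2 fold change -0.61 ± 0.05 (SE), limma adjusted p = 1.18e-09). Each gene's groups were apart in all 8 libraries. The P/Q-type gene Cacna1a fell (-0.51), and so did Cacnb3 (-0.30), an accessory subunit. Scn3a, which encodes the sodium channel NaV1.3, rose from 609 ± 15.9 to 1116 ± 58.8 (SD, n = 4; log2 fold change 0.87).

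Most tested genes for the secretory granule's content rose, but not all of its major cargo. Of 23 tested genes for granule cargo, prohormone processing and zinc transport, 14 rose and 1 fell, with a median log2 fold change of 0.25. Vgf, a granin that is cut into bioactive peptides, read 6824, 6579, 6492 and 6072 in Control and 12992, 12552, 12049 and 12792 with GLP-1 (log2 fold change 0.96 ± 0.04 (SE), limma adjusted p = 2.00e-14). Pam, the enzyme that amidates the ends of peptide hormones, read 13460, 13708, 13587 and 13183 in Control and 22819, 22664, 21863 and 22276 with GLP-1 (log2 fold change 0.73 ± 0.03 (SE), limma adjusted p = 2.00e-14). In both genes the gap between the groups was wider than the spread within them. Scg2 (log2 fold change 0.64) and Scg3 (0.37), further granins, rose, and so did Ptprn (0.71), a protein of the granule membrane, and Pcsk2 (0.27), a protease that cuts proinsulin. Among peptide precursors that are less usual in beta cells, Tac1, the precursor of substance P, rose from 147 ± 13.9 to 391 ± 35.1 (SD, n = 4; log2 fold change 1.41) and Cartpt, the precursor of the CART peptides, from 74.1 ± 1.26 to 175 ± 12.5 (SD, n = 4; 1.22). The exception was Slc30a8, which loads zinc into granules and fell from 4153 ± 129.5 to 3484 ± 60.3 (SD, n = 4; log2 fold change -0.25 ± 0.03 (SE), limma adjusted p = 3.53e-06).

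Chgb, the chromogranin B gene, had the largest gain in normalised reads in the table, which are not corrected for transcript length. It read 214410, 212940, 205240 and 191010 in Control and 255810, 257000, 236840 and 224700 with GLP-1 (log2 fold change 0.24 ± 0.05 (SE), limma adjusted p = 0.00368), and replicate 4 was the lowest library of both groups. Ins1 followed with 108240, 107000, 106660 and 104440 in Control and 128170, 125070, 121720 and 130530 with GLP-1 (log2 fold change 0.25 ± 0.03 (SE), limma adjusted p = 1.78e-07). Ins2 did not pass: it read 15880, 15971, 16564 and 15429 in Control and 15769, 14008, 15269 and 16158 with GLP-1, the groups overlapped, and the log2 fold change was -0.06 ± 0.04 (SE), limma adjusted p = 0.221. Scaled to library totals, Ins2 was lower with an adjusted p of 0.0212. Ins1 and Ins2 are near-identical copies, so the division of reads between them by the authors' counting is uncertain. Iapp, which encodes the amyloid peptide released with insulin, read 43858, 45799, 39332 and 38886 in Control and 51034, 48679, 43425 and 41810 with GLP-1 (log2 fold change 0.14 ± 0.08 (SE), limma adjusted p = 0.264). Each GLP-1 library of Iapp exceeded the Control library of the same number although the groups overlapped, and with the replicate number as a block its adjusted p was 5.56e-12.

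A CRE, the palindrome TGACGTCA to which CREB binds, was looked for in the window of 250 bases before to 50 bases after the start of each gene in RefSeq's promoter table (build GRCr8, which differs from the Rnor_5.0 build of the counts). A window was found for 8948 of the 12641 genes. The 8 letters stood in 1.91% of all 27457 windows, 3.36% of those of tested genes, 4.34% of those of genes that rose (65 of 1496) and 2.66% of those of genes that fell (38 of 1430). The shorter letters TGACG, on either strand and including those inside the palindrome, stood in 32.7% of windows of tested genes, 40.3% of genes that rose and 25.3% of genes that fell, whose median GC content was 61.7, 62.0 and 64.3%. None of the 34 genes with a window among the 40 largest changes and the called members of the CREB list held the whole palindrome. Of the granule cargo genes 3 that rose did, and their windows are shown because they place the letters in the genes of the paragraph above; they were chosen after their values were seen. Capitals mark TGACGTCA, which begins 142, 90 and 123 bases before the start in Cartpt (chr2:32991186-32991485, minus strand), Vgf (chr12:25276971-25277270, minus strand) and Scg2 (chr9:88256817-88257116, minus strand). A match is a description of the letters and not evidence of binding.
Cartpt: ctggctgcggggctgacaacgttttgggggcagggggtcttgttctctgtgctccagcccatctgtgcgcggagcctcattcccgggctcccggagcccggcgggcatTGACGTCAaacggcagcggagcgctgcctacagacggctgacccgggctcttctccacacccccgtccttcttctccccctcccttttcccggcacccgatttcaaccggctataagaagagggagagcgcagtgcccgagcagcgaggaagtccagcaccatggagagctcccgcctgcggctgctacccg
Vgf: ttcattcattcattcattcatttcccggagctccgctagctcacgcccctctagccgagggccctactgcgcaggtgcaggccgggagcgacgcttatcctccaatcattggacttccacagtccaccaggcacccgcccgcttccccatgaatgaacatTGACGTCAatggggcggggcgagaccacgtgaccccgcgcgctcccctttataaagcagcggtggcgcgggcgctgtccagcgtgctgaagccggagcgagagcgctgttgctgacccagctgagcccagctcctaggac
Scg2: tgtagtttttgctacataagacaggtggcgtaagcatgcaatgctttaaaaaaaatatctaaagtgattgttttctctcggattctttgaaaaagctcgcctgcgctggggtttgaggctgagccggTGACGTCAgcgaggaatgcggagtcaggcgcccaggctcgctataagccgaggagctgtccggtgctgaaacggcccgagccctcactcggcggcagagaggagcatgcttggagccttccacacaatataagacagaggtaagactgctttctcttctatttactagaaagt

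The machinery that moves new proteins into and through the ER and the Golgi rose in most of its members, by small folds. New secretory proteins enter the ER through the SEC61 channel, are glycosylated and folded there, leave in COPII-coated vesicles, and are sent back in COPI-coated vesicles when they carry a retrieval signal. Of 31 tested genes for ER translocation, signal peptide removal and N-glycosylation, 26 rose and none fell (median log2 fold change 0.19), and the 5 that did not pass were Sec61a2, Sec62, Srp9, Srp14 and Srp19. Of 52 tested genes of COPII, COPI and Golgi transport, 42 rose and 1, Trappc3, fell (median 0.22). Of 21 tested genes of ER-associated degradation, which returns misfolded proteins to the cytosol, 15 rose and none fell (median 0.17). At an unadjusted p under 0.05 limma had 1 lower in the first list and none in the third, and edgeR and DESeq2 called none lower in either. Scaling to library totals gave 21 rising and 1 falling, 35 and 2, and 11 and 0. No member of the 3 lists changed by as much as 2-fold.

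Sec61a1, the pore of the translocation channel, read 8978, 8687, 9211 and 8958 in Control and 10790, 10537, 11393 and 11411 with GLP-1 (log2 fold change 0.30 ± 0.03 (SE), limma adjusted p = 2.74e-07). Sec22b, a SNARE of ER-to-Golgi traffic, read 2848, 2786, 2904 and 2956 in Control and 3809, 3857, 3940 and 3826 with GLP-1 (log2 fold change 0.43 ± 0.03 (SE), limma adjusted p = 1.76e-09). In both genes the smallest gap between the groups was wider than the spread within either group. Kdelr2, a receptor that retrieves ER residents from the Golgi, rose from 4389.9 ± 105 to 5655 ± 165 (SD, n = 4), and Sec31a, of the outer COPII coat, from 2518 ± 72.8 to 3301 ± 121 (SD, n = 4). Their log2 fold changes were 0.37 and 0.39, and those of the GTPase Sar1a, which starts COPII assembly, and the COPI subunit Copa were 0.32 and 0.28. The largest changes of the COP list were Kdelr3 (0.54), Sec23a (0.51) and Copz2 (0.51). Edem1, a lectin that hands misfolded glycoproteins to degradation, read 1071, 1083, 1136 and 1128 in Control and 1478, 1370, 1541 and 1577 with GLP-1 (log2 fold change 0.43 ± 0.04 (SE), limma adjusted p = 1.65e-07). Sel1l, the adaptor of the HRD1 ubiquitin ligase, rose (log2 fold change 0.37 ± 0.09 (SE), limma adjusted p = 0.019), as did Sdf2l1 (0.61) and Vcp (0.13), the ATPase that pulls proteins out of the membrane. Herpud1, another part of the HRD1 complex, did not pass (0.23).

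**Figure D2:**
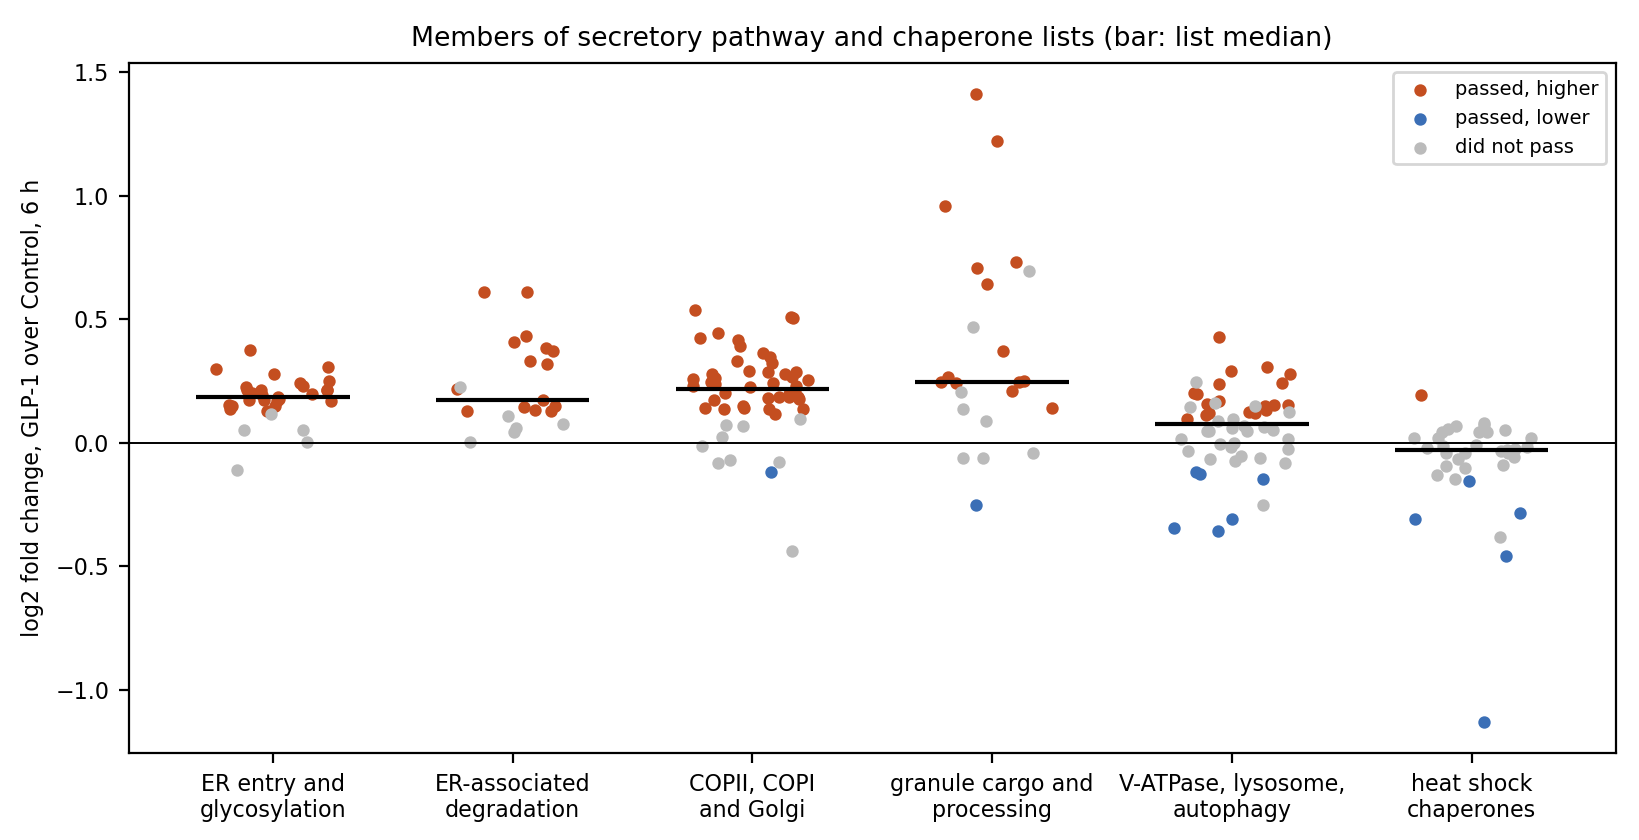
Log2 fold change (GLP-1 over Control, 6 h) of each tested member of 6 lists, one point a gene, with the list median as a bar. The first 4 lists have medians of 0.19, 0.17, 0.22 and 0.25, and the medians of the lysosome and heat shock lists are 0.08 and -0.03.

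Several chaperones that fold proteins inside the ER rose too. Hspa5, the chaperone BiP, read 35448, 34910, 42419 and 40211 in Control and 49229, 47116, 59766 and 55953 with GLP-1 (log2 fold change 0.47 ± 0.10 (SE), limma adjusted p = 0.0133). Replicates 3 and 4 were higher than replicates 1 and 2 in both groups, so that the step from Control to GLP-1 within each number was close to the same, with log2 differences of 0.47, 0.43, 0.49 and 0.48. Hsp90b1, the chaperone GRP94, had the same order, with 25862, 25590, 29839 and 28783 in Control and 32802, 31760, 39382 and 37085 with GLP-1 (log2 fold change 0.36 ± 0.09 (SE), limma adjusted p = 0.0174). Creld2 (log2 fold change 0.61 ± 0.13 (SE), limma adjusted p = 0.0123) and Dnajc3 (log2 fold change 0.53 ± 0.14 (SE), limma adjusted p = 0.0286), both resident in the ER lumen, rose as well. Xbp1, a transcription factor of the unfolded protein response, rose from 3973 ± 173 to 5411 ± 209.9 (SD, n = 4; log2 fold change 0.45 ± 0.04 (SE), limma adjusted p = 6.53e-09). The table counts Xbp1 reads over the gene and says nothing of its splicing. Calr rose by 0.34 and Canx by 0.17 on the log2 scale, both lectin chaperones that hold glycoproteins while they fold.

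The ER stress response element, ERSE, is the pair CCAAT and CCACG with 9 bases of any kind between them, on either strand, to which NF-Y and ATF6 bind. These letters stood in 0.0765% of all windows of the table and in 14 windows (0.157%) of tested genes. The shares were 0.602% for genes that rose, 0.0699% for genes that fell and 0.0666% for genes that did not pass. Of those 14 genes 9 rose, while 16.2% of all genes tested did. The 9 were Creld2, Dnajc3, Hspa5, Xbp1, Derl3, Zfand2a, Hsp90b1, Calr and Canx. Ero1lb, an oxidase of the ER that is listed as Ero1b in the promoter table, fell (log2 fold change -0.28 ± 0.07 (SE), limma adjusted p = 0.0026). The other 4, Pan2, Birc5, Ankmy2 and Ppm1l, did not pass, with log2 fold changes from -0.13 to 0.01. The windows of the 4 genes with the largest increase are shown to place the letters, in capitals, which begin 145, 133, 43 and 65 bases before the start in Creld2 (chr7:121789134-121789433, plus strand), Dnajc3 (chr15:102432417-102432716, plus strand), Hspa5 (chr3:38452766-38453065, plus strand) and Xbp1 (chr14:84604373-84604672, plus strand). In Creld2 they read on the opposite strand.
Creld2: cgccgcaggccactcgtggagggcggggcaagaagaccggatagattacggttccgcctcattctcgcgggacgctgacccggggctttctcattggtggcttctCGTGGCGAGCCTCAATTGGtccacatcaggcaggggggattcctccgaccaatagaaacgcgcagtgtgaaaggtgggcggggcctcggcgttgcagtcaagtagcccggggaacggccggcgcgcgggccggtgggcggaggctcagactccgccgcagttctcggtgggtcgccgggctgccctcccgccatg
Dnajc3: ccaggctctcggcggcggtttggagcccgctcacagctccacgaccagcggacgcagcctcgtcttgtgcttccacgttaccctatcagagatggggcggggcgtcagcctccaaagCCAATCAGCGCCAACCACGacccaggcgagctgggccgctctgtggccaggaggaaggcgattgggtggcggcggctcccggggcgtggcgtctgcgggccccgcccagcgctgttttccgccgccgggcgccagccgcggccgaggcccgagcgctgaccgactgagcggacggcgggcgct
Hspa5: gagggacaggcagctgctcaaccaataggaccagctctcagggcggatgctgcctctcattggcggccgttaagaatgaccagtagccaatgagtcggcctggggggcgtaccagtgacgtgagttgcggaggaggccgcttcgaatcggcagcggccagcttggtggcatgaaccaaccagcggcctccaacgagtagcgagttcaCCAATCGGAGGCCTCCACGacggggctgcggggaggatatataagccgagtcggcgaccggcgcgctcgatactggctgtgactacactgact
Xbp1: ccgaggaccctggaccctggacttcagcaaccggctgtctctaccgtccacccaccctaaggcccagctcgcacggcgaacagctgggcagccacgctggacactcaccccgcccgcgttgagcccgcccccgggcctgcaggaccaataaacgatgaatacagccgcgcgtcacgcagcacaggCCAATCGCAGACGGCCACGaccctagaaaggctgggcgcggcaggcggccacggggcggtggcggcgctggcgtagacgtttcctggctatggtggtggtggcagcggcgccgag

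**Figure D3:**
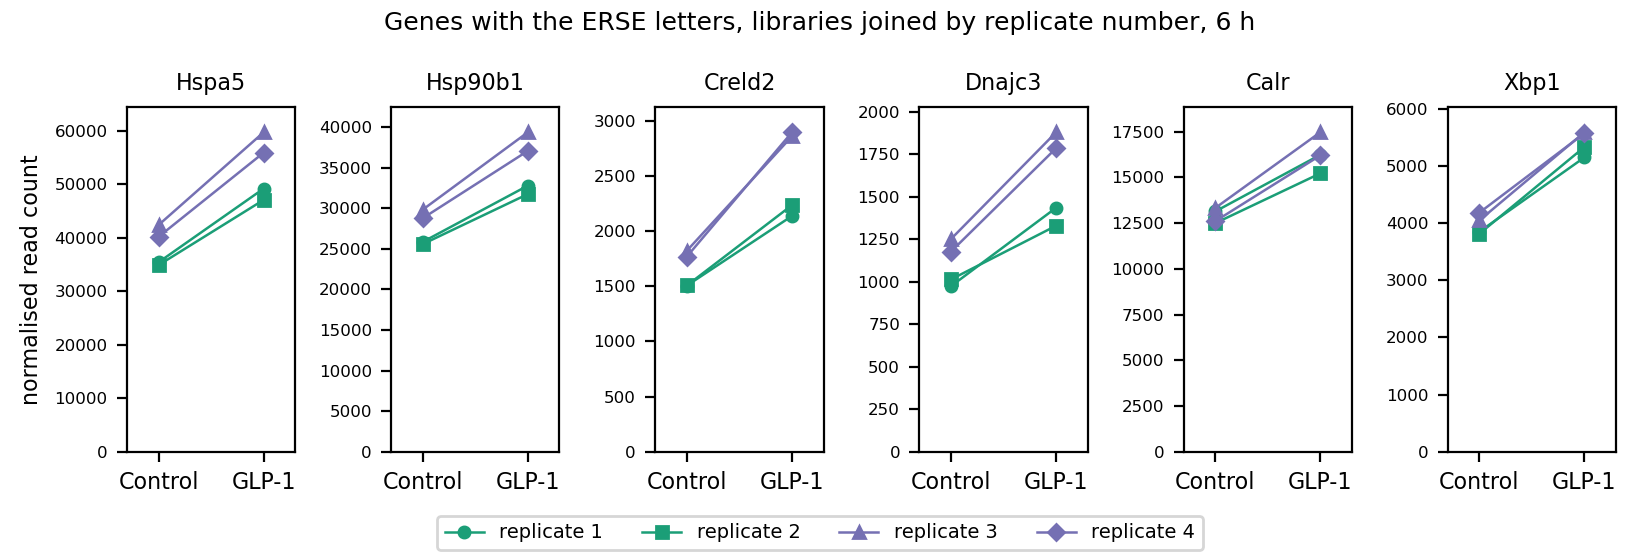
Normalised read count in each 6 h library (axes from 0) of 6 of the genes whose promoter window holds the ERSE letters, with a line joining Control and GLP-1 libraries of the same replicate number. All lines rise, and for Hspa5, Hsp90b1, Creld2 and Dnajc3 replicates 3 and 4 start and end above replicates 1 and 2.

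Chaperones of the cytosol and the mitochondria gave other counts. Of 35 tested heat shock genes 1, Hspe1, rose and 5 fell (median log2 fold change -0.03). That is 17.1% in all, under the 31.7% over all genes tested. With the replicate block 4 rose and 11 fell. Hspa12a, a distant member of the HSP70 family, read 1446, 1533, 1479 and 1519.8 in Control and 655, 715, 678 and 681 with GLP-1 (log2 fold change -1.13 ± 0.04 (SE), limma adjusted p = 2.00e-14). Bag3, a co-chaperone of HSP70 in selective autophagy, fell (-0.29), and Dnaja4 fell as well (-0.31), though not in replicates 1 and 2 alone. All 8 tested subunits of the TCP-1 ring stayed under the threshold, with log2 fold changes from -0.06 to 0.08.

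Further along the pathway, 19 of 52 tested genes of the vacuolar ATPase, the lysosome and autophagy rose and 6 fell. Those were 48.1% in all, against 31.7% over all genes tested, and library totals gave 12 and 8. Atp6v0a1, a membrane subunit of the proton pump that acidifies granules and lysosomes, read 4186, 4307, 4200 and 4246 in Control and 5095, 5101, 5355 and 5435 with GLP-1 (log2 fold change 0.31 ± 0.03 (SE), limma adjusted p = 1.73e-07). Atp6v0c (0.24) and the lysosomal enzymes Gla (0.43) and Gaa (0.20) rose. The genes that fell included the autophagy-starting kinases Ulk1 (-0.31) and Ulk2 (-0.35) and Tfeb (-0.36), a transcription factor of lysosomal genes. Of 35 tested proteasome subunits 15 rose and 2 fell, 48.6% in all. With library totals 3 rose and 2 fell, and in replicates 3 and 4 alone 8 rose. Psmc4 (0.18) and Psmd12 (0.18) were among those that rose and Psmd11 (-0.26), a subunit of the lid, was among those that fell.

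Genes that supply and run protein synthesis rose in part. Of 23 tested cytosolic aminoacyl-tRNA synthetases and their partners, 13 rose and none fell (median 0.12), and 8 rose with library totals. By limma at an unadjusted p under 0.05, by edgeR and by DESeq2 the number that fell was 0 as well. Tars, which charges threonine, read 1399.9, 1373, 1499.6 and 1377 in Control and 2118, 2087, 2138 and 2107 with GLP-1 (log2 fold change 0.58 ± 0.04 (SE), limma adjusted p = 1.32e-10), and the next largest log2 fold changes were 0.29 for Sars, 0.25 for Cars and 0.24 for Gars. Of 57 tested genes of ribosome biogenesis, 23 rose and 2 fell (12 and 4 with library totals). Those of the main fit were 43.9%, against 31.7% over all genes tested. Bop1, needed for the large subunit, had a log2 fold change of 0.32, and Ubtf, which drives ribosomal RNA transcription, one of -0.26. Of 37 tested cytosolic ribosomal protein genes 9 rose (24.3%, against 16.2% over all genes tested), with a median of 0.06. The count was 22 with the replicate block, 2 with library totals and 4 without replicate 2 of the Control libraries. It was 5 without replicate 4 of the Control or replicates 1 or 3 of the GLP-1 libraries. Ribosomal protein genes have many near-identical pseudogenes, and how the authors' counting divided such reads is not given in the sources used here. Eif6, which keeps ribosomal subunits apart, rose by 0.41. In its list of 53 tested translation factors 11 rose and 5 fell (4 and 10 with library totals). That is 30.2% in all, near the 31.7% over all genes tested. The number that fell was 3 without replicate 1 or 2 of the Control or replicate 1 or 3 of the GLP-1 libraries, by DESeq2, and in replicates 3 and 4 alone.

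Amino acid transporters changed without a common direction, 9 of 30 tested rising and 8 falling, 56.7% in all against 31.7% over all genes tested. Both light chains of the large neutral amino acid exchangers, Slc7a8 (0.82) and Slc7a5 (0.52), rose together with their shared heavy chain. That heavy chain, Slc3a2, read 1856, 1810, 1933 and 1894 in Control and 2929.7, 2817, 3108 and 2753 with GLP-1 (log2 fold change 0.63 ± 0.04 (SE), limma adjusted p = 9.41e-11). Slc7a11, the cystine importer that feeds glutathione synthesis, read 50.3, 34.4, 63.9 and 62.5 in Control and 120.4, 114, 216 and 185 with GLP-1 (log2 fold change 1.56 ± 0.26 (SE), limma adjusted p = 0.00138), with replicates 3 and 4 the highest in both groups. Slc43a2, a leucine and phenylalanine carrier, fell from 2636 ± 143 to 1657 ± 26.3 (SD, n = 4; log2 fold change -0.67 ± 0.04 (SE), limma adjusted p = 2.79e-11). Of 21 tested genes of serine, one-carbon and asparagine synthesis 3 rose and 5 fell, 38.1% in all against 31.7% over all genes tested. Shmt1 (-0.39) and Tyms (-0.30), which work together in making thymidylate, fell, and Asns, asparagine synthetase, rose (0.23).

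Genes for handling glucose and fat were among those with the largest loss in reads. Slc2a2, the GLUT2 glucose transporter through which rodent beta cells take up glucose, read 21397, 22391, 21050 and 21876 in Control and 13201, 14194, 13246 and 14012 with GLP-1 (log2 fold change -0.67 ± 0.03 (SE), limma adjusted p = 7.97e-13). Acly, which makes acetyl-CoA from citrate for lipid synthesis, had the largest loss in reads, from 58229 ± 2039.7 to 47552 ± 1083 (SD, n = 4; log2 fold change -0.29 ± 0.03 (SE), limma adjusted p = 6.58e-08). Mlxipl, which encodes the glucose-sensing transcription factor ChREBP, read 7202, 7386, 6511 and 6559.6 in Control and 5244, 5171, 4702 and 5052 with GLP-1 (log2 fold change -0.45 ± 0.04 (SE), limma adjusted p = 1.07e-07). ChREBP is known to control a pair of arrestin-like genes, Txnip and Arrdc4, which were also lower at 6 h. Txnip, an inhibitor of thioredoxin, read 12529, 13533, 13894 and 13086 in Control and 5655, 6386, 6501 and 6006 with GLP-1 (log2 fold change -1.11 ± 0.04 (SE), limma adjusted p = 1.84e-13), and Arrdc4 had a log2 fold change of -0.67. At 1 h the log2 fold changes of Txnip and Arrdc4 were already -1.68 and -0.66, while that of Mlxipl was -0.07 and did not pass (edgeR adjusted p = 0.52). Whether Mlxipl had a part in the lower values of Txnip and Arrdc4 was not tested. The groups of Slc2a2, Mlxipl and Txnip did not overlap. Gpd1, glycerol-3-phosphate dehydrogenase, fell by 0.68 on the log2 scale (limma adjusted p = 5.64e-04).

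Mitochondrial genes changed by small amounts. Of 59 tested nuclear genes of oxidative phosphorylation 16 rose (27.1%, against 16.2% over all genes tested) and none fell (median 0.08). With the replicate block 28 rose and 1 fell, 10 rose without replicate 1 of the GLP-1 libraries, and 4 rose and 4 fell with library totals. None of the 13 mitochondrially encoded genes passed, with log2 fold changes from -0.06 to 0.05 in limma, where none had an unadjusted p under 0.05 either, and none was called by edgeR or DESeq2. With the replicate block 3 were higher and 1 lower, and with library totals 2 were lower. In replicates 1 and 2 alone 7 were higher (median 0.05), and in replicates 3 and 4 alone 1 was lower (median -0.03). Atp5a1 (0.18 ± 0.03 (SE), limma adjusted p = 3.25e-05) and Atp5b (0.15 ± 0.03 (SE), limma adjusted p = 1.56e-04), the alpha and beta subunits of the ATP synthase, were the clearest of the increases. In the tricarboxylic acid cycle and its inlets 5 of 37 tested genes rose (8 with the block) and 12 fell, 45.9% in all. Over all genes tested 16.2% rose and 15.6% fell, 31.7% in all. Mdh1 and Mdh2, the malate dehydrogenases, rose by 0.21 and 0.16 on the log2 scale. Those that fell included the dicarboxylate carrier Slc25a10 (-0.47), Slc25a1, the citrate carrier (-0.27), Pc, pyruvate carboxylase (-0.33), and Pdhb (-0.31). In fatty acid oxidation and lipolysis 5 of 38 tested genes rose (8 with the block) and 11 fell, 42.1% in all. Cpt2 (-0.41 ± 0.04 (SE), limma adjusted p = 1.92e-07) and Hadhb (-0.29 ± 0.03 (SE), limma adjusted p = 5.43e-07), of the import and the last steps of beta-oxidation, fell, and Ppargc1a, the coactivator PGC-1 alpha, rose from 67.6 ± 10.3 to 113 ± 10.6 (SD, n = 4).

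Part of the DNA replication genes fell, by small folds. Of 57 tested DNA replication genes 19 (background 15.6%) fell and 1, Rrm2, rose (median log2 fold change -0.11). The count that fell was 29 with the replicate block, 31 with library totals, 9 by DESeq2, 11 without replicate 3 of the Control libraries and 12 without replicate 2 of the GLP-1 libraries. E2f1, the transcription factor that opens S phase, read 521, 561, 502 and 537 in Control and 415, 437, 411 and 393 with GLP-1 (log2 fold change -0.36 ± 0.06 (SE), limma adjusted p = 3.58e-05). Mcm2, of the replicative helicase, read 2536, 2548, 2451 and 2454 in Control and 2163, 2277, 2122 and 2179 with GLP-1 (log2 fold change -0.19 ± 0.03 (SE), limma adjusted p = 1.92e-04), and Mcm3, Mcm4, Mcm6 and Mcm7 fell by 0.16, 0.11, 0.11 and 0.16 on the log2 scale. Neither E2f1 nor Mcm2 had a GLP-1 library as high as its lowest Control library. Of 66 tested genes of mitosis 13 (19.7%) fell, a share near the 15.6% over all genes, and none rose (median -0.08). The number that fell was 27 with the block, where 1 rose, 31 with library totals and 22 in replicates 3 and 4 alone. None rose by edgeR, by DESeq2 or at an unadjusted p under 0.05 in limma. Mybl2 (-0.29 ± 0.06 (SE), limma adjusted p = 6.43e-04), a transcription factor of late cell cycle genes, and Pttg1, securin (-0.40 ± 0.09 (SE), limma adjusted p = 0.0025), were among them. Mki67 and Cdk1 did not pass, with log2 fold changes of -0.02 and -0.07. Ccnd1, which encodes the G1 cyclin D1, went the other way, with 97.7, 77.9, 113 and 109 in Control and 606, 609.9, 547 and 569 with GLP-1 (log2 fold change 2.55 ± 0.09 (SE), limma adjusted p = 6.62e-14). Mycn, a transcription factor of proliferating neuroendocrine cells, fell from 126 ± 6.79 to 46.4 ± 7.58 (SD, n = 4).

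Pancreatic, neuronal and neuroendocrine transcription factors moved both ways, 11 of 42 tested rising and 11 falling. Those were 52.4% in all, against 31.7% over all genes tested. Etv1, an ETS factor, read 6398, 6599, 6332 and 6463 in Control and 10694, 10680, 10627 and 10767 with GLP-1 (log2 fold change 0.73 ± 0.03 (SE), limma adjusted p = 3.49e-14). Isl1 (0.53), Foxa2 (0.36) and Nkx2-2 (0.23) rose, and Pdx1, the master regulator of the insulin gene, rose by 0.16. Glis3, which is needed for insulin transcription, read 1246, 1379, 1283 and 1267 in Control and 692, 713, 698 and 794 with GLP-1 (log2 fold change -0.84 ± 0.05 (SE), limma adjusted p = 2.69e-11). The groups of Etv1 and Glis3 did not overlap. Neurod1 (-0.49), Nkx6-1 (-0.25) and Rfx6 (-0.60) fell, and Mafa did not pass (0.09).

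Several genes of growth factor signalling were among the named genes, and no list of that pathway was counted. Igf1r, the receptor of insulin-like growth factor 1, read 521, 579, 524 and 479 in Control and 2001, 1999, 2019 and 2112 with GLP-1 (log2 fold change 1.95 ± 0.05 (SE), limma adjusted p = 4.62e-17). Irs2, the adaptor that carries its signal in beta cells, read 4722, 4693, 5318 and 5243 in Control and 8199, 8038, 8113 and 8906 with GLP-1 (log2 fold change 0.74 ± 0.04 (SE), limma adjusted p = 1.75e-10). Spry1, an inhibitor of receptor tyrosine kinase signalling, rose from 51.0 ± 4.27 to 163 ± 10.6 (SD, n = 4), and Shc2, an adaptor of the same receptors, fell from 7368 ± 357 to 4777 ± 305 (SD, n = 4). In the list for activin, BMP, TGF-beta and WNT signalling 13 of 48 tested genes rose and 9 fell. Together they were 45.8%, against 31.7% over all genes tested. Fst, which encodes follistatin, a secreted trap for activin, read 4.65, 5.06, 4.91 and 4.96 in Control and 58.7, 73.6, 49.2 and 48.2 with GLP-1 (log2 fold change 3.29 ± 0.21 (SE), limma adjusted p = 1.65e-10). Id4, an inhibitor of basic helix-loop-helix factors, read 1123, 1158, 1025 and 1183 in Control and 3747, 3655, 2799 and 3218 with GLP-1 (log2 fold change 1.57 ± 0.09 (SE), limma adjusted p = 2.63e-06), with replicate 3 the lowest in both groups. Tgfb2 rose by 1.27, Tcf7l2, the WNT pathway transcription factor linked to type 2 diabetes, by 0.91 and Wnt4 by 0.79, whereas the inhibitory Smad7 fell (-0.30).

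Genes of the cytoskeleton, cell surface and matrix held several large changes. Of 50 tested genes of actin, myosin and their regulators 14 rose and 9 fell, 46% in all. Over all genes tested 16.2% rose and 15.6% fell, 31.7% in all. The counts of the list were 15 and 15 with the block and 12 and 16 with library totals. Mylk, myosin light chain kinase, read 693, 689, 638 and 688 in Control and 2948, 2909.5, 3068 and 3258 with GLP-1 (log2 fold change 2.17 ± 0.04 (SE), limma adjusted p = 9.81e-19). Actn4, an actin crosslinker, rose by 0.43 and Tpm4, a tropomyosin, by 0.57. Prex2 and Prex1, exchange factors for Rac, fell by 1.53 and 0.43 on the log2 scale, and Myh10, a non-muscle myosin, by 0.46. Fn1, fibronectin, read 8298, 8641, 8325 and 8226 in Control and 14675, 15078, 14956 and 15710 with GLP-1 (log2 fold change 0.85 ± 0.03 (SE), limma adjusted p = 1.02e-14). Adamts9 rose from 45.4 ± 7.64 to 136 ± 9.63 (SD, n = 4) and Adamts8 fell from 392 ± 83.9 to 174 ± 40.3 (SD, n = 4), both secreted metalloproteases. App, the amyloid precursor protein, rose from 19884 ± 747 to 27079 ± 443 (SD, n = 4). Kdr, the marker named above, rose from 20.1 ± 2.26 to 51.9 ± 14.7 (SD, n = 4; log2 fold change 1.29 ± 0.19 (SE), limma adjusted p = 1.80e-05), while the endothelial markers Cdh5 (at 0) and Pecam1 (0.749 in Control and 0.508 with GLP-1) were barely read and Vwf did not pass (-0.47).

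In the list for defence against oxidants 10 of 32 tested genes rose and 2, Txnip and Arrdc4, fell (median log2 fold change 0.02). That is 37.5% in all, against 31.7% over all genes tested, and with library totals 4 rose and 8 fell. Hmox1, haem oxygenase 1, rose from 90.0 ± 18.5 to 192 ± 55.8 (SD, n = 4; log2 fold change 1.06 ± 0.22 (SE), limma adjusted p = 0.00499), and Txn1, thioredoxin itself, by 0.18. Nqo1, Gclm and Txnrd1, all classical targets of the factor NRF2, did not pass (-0.11, -0.09 and 0.07), while Gclc rose by 0.21.

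Other genes among the 40 largest changes belonged to none of the lists. Their values are given as mean ± SD over 4 libraries. Of those that rose, Mest, an imprinted gene, went from 482 ± 12.5 to 1721 ± 181 and Klf4, a Krüppel-like transcription factor, from 45.1 ± 9.62 to 151 ± 13.3. Tmem163, a zinc-binding membrane protein, rose from 473 ± 35.5 to 1456 ± 129, Diras2, a small GTPase, from 71.9 ± 9.08 to 228 ± 23.2 and Gcnt3, a glycosyltransferase of mucin cores, from 21.5 ± 3.03 to 85.3 ± 17.5. Sv2c, a synaptic vesicle glycoprotein, read 83.8, 88.0, 76.7 and 73.5 in Control and 515, 543, 513 and 577 with GLP-1. Of those that fell, several are known from synapses: Gria2, an AMPA receptor subunit (228 ± 29.3 to 95.8 ± 12.9), Grm2, a metabotropic glutamate receptor (246 ± 25.8 to 105 ± 9.44), Cttnbp2, a protein of dendritic spines (531 ± 30.4 to 238 ± 17.4), and Lgi3 (85.2 ± 17.9 to 37.6 ± 7.12). Vdr, the vitamin D receptor, went from 74.3 ± 8.88 to 32.9 ± 4.36, Tgm2, a transglutaminase, from 435 ± 44.7 to 204 ± 41.3, Ptpre, a tyrosine phosphatase, from 336 ± 26.0 to 150.0 ± 22.4, Cpne5, a copine, from 75.4 ± 6.54 to 32.2 ± 8.23 and Trim72, known for membrane repair in muscle, from 80.7 ± 16.5 to 35.5 ± 7.16. The choice of the 40 required that the 4 GLP-1 libraries did not overlap the 4 Control libraries, so their separation is not a separate result.

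**Figure D4:**
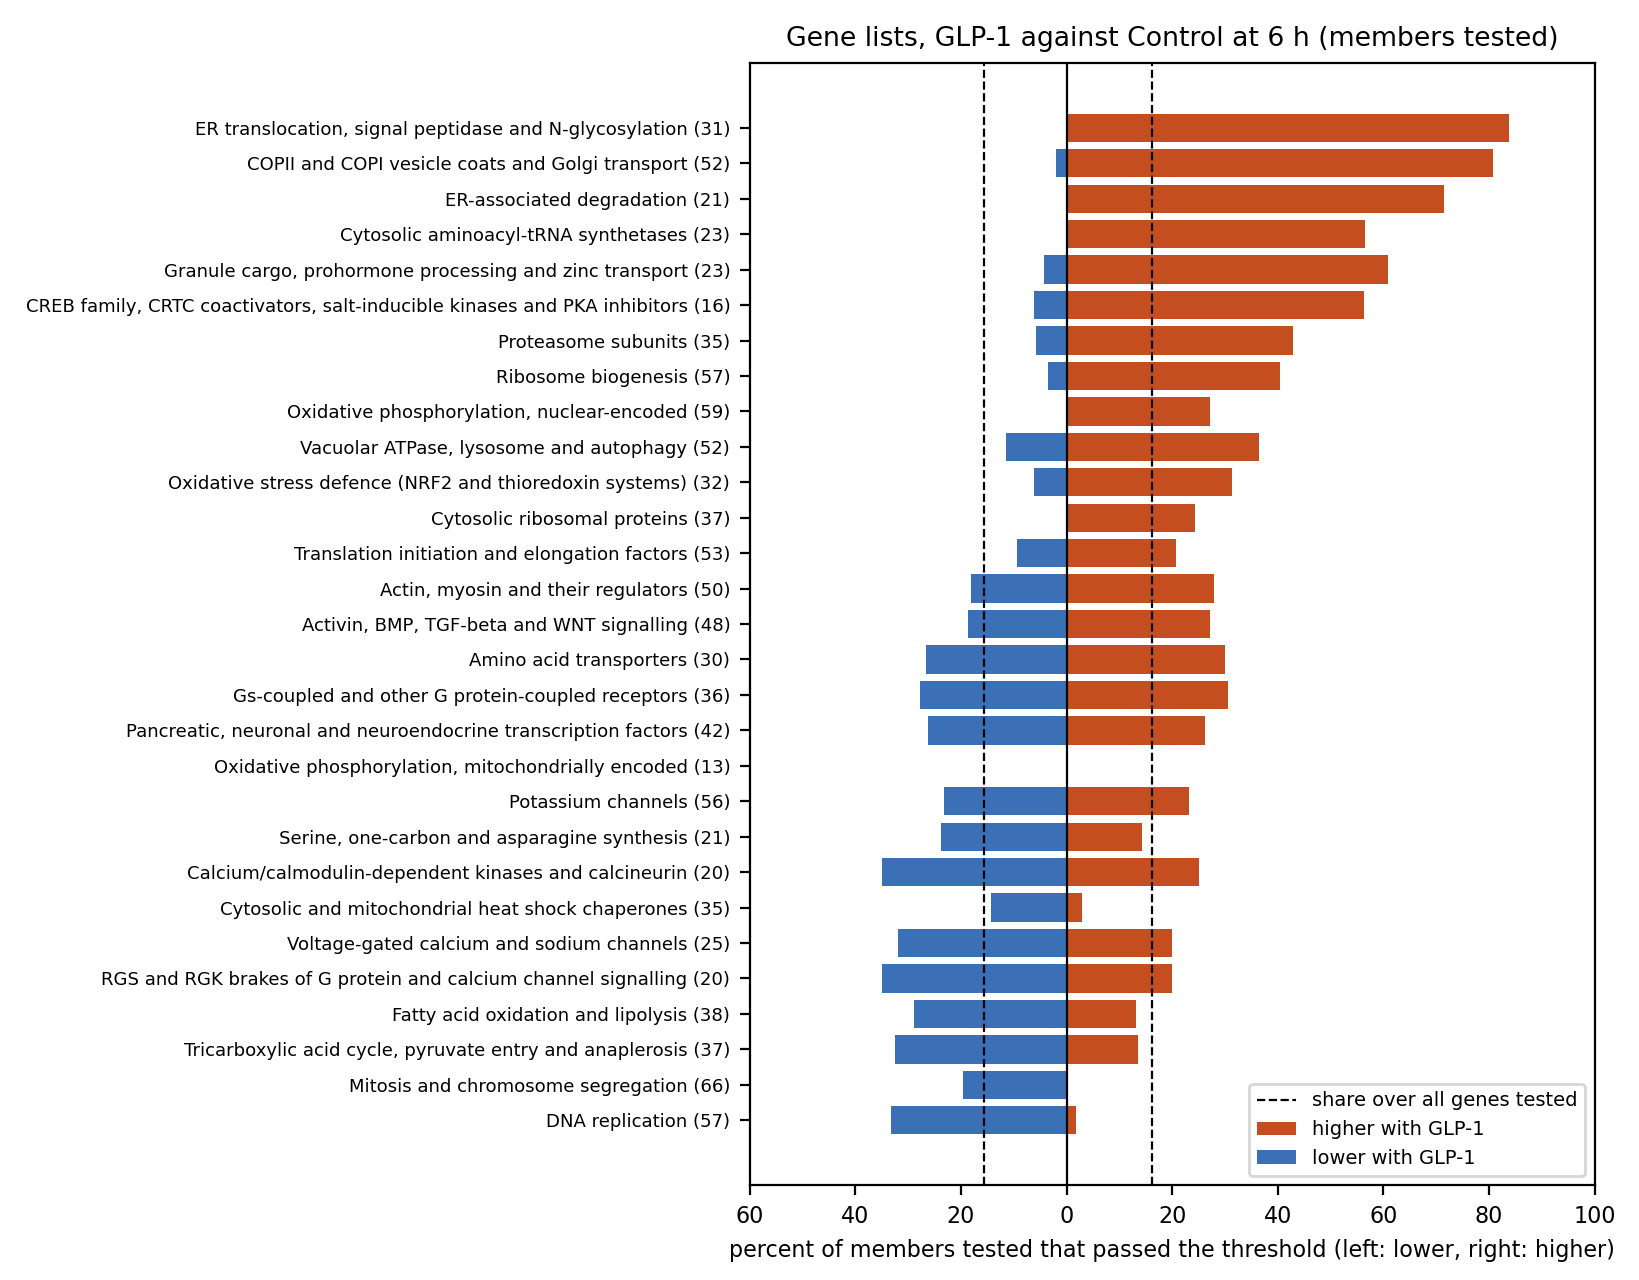
Share of tested members of 29 gene lists (number tested in brackets) that rose (right) or fell (left) with GLP-1 at 6 h, with dashed lines at 16.2% and 15.6%, the shares over all genes tested. The ER translocation, COP and ER degradation lists have the largest shares that rose (26 of 31, 42 of 52 and 15 of 21), and DNA replication has 19 of 57 that fell.

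Set beside the GLP-1 response after 1 h, which was measured in separate cells with their own Control libraries, the 6 h response differed for 2341 of 12976 genes (18%), with 1161 (8.95%) above and 1180 (9.09%) below the 1 h response (edgeR interaction, Benjamini-Hochberg adjusted p under 0.05). At 1 h, 553 of the 12976 genes (4.26%) were higher and 339 (2.61%) lower, 6.87% in all (edgeR, Benjamini-Hochberg adjusted p under 0.05), so that a list with no call at 1 h is near that background. None of the 31 ER translocation genes passed the threshold at 1 h, and 13 of them had a 6 h response above that of 1 h and none below. Of the 52 COP and Golgi genes 3 were higher and 1 lower at 1 h, and 31 had the larger response at 6 h and 1 the smaller. Of 21 ER degradation genes none passed at 1 h and 8 were above it at 6 h. At an unadjusted p under 0.05, 1 and 3 genes of the ER translocation and degradation lists were higher at 1 h and none lower, and DESeq2 gave 13 and 8 with the larger response at 6 h and none with the smaller. In the granule list 5 of 23 genes had risen at 1 h, and the response was larger at 6 h for 11 and smaller for 1. In the DNA replication list 10 of 57 genes had a 6 h response below that of 1 h and none above (16 and 0 at an unadjusted p under 0.05, 8 and 0 by DESeq2).

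The genes with the largest gain from 1 h to 6 h had log2 fold changes near 0 at 1 h with the exception of Asb4 and Rxfp3. Sv2c had a log2 fold change of -0.09 at 1 h and a difference between the times of 2.83 (edgeR adjusted p = 3.07e-16). Camk4 (-0.02 at 1 h, difference 2.23), Mylk (-0.00 and 2.17), Igf1r (0.03 and 1.93), Camk2d (0.06 and 1.61) and Tmem163 (0.03 and 1.59) had the same course. Asb4, a substrate receptor of ubiquitin ligases, had already risen by 1.35 at 1 h, and Rxfp3, the relaxin-3 receptor, by 1.48. The largest losses were immediate early genes that were still above Control at 6 h. Nr4a1, an orphan nuclear receptor, read 143, 142, 157 and 159 in Control and 457, 361, 349 and 392 with GLP-1 at 6 h (log2 fold change 1.36 ± 0.08 (SE), limma adjusted p = 5.34e-11), against a log2 fold change of 4.33 at 1 h. Its difference between the times was -2.95 (edgeR adjusted p = 6.09e-21), that of Nr4a3 was -3.61 and that of Nr4a2 -2.89. Nr4a3 read 42.8, 52.6, 37.3 and 46.7 in Control and 67.8, 66.4, 69.5 and 68.6 with GLP-1 at 6 h, and the groups did not overlap. Rgs2 (-2.57), Fosl2 (-2.52), Fos (-2.35), Junb (-2.10) and Btg2 (-2.07), an antiproliferative gene, fell back as well, and all 5 were still higher than Control at 6 h.

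Of the CREB, CRTC, salt-inducible kinase and protein kinase A inhibitor list, 6 of 16 genes had a larger response at 6 h than at 1 h and 2 a smaller one. Sik1 and Crem were the 2 with the smaller response. Sik1 went from a log2 fold change of 3.63 at 1 h to 1.63 at 6 h (edgeR difference -1.99, adjusted p = 4.12e-15), Crem from 2.09 to 1.22 (difference -0.86) and Gem, of the RGK list, from 2.10 to 0.71 (difference -1.39). Pde1c went the other way, from -0.02 at 1 h to 1.27 at 6 h (edgeR adjusted p of the difference = 5.76e-12). For some genes no change between the times was detected. Mest had a log2 fold change of 1.70 at 1 h and 1.83 at 6 h (difference 0.14, edgeR adjusted p = 0.54), and Mycn one of -1.44 and -1.43 (difference 0.01, edgeR adjusted p = 0.98). Txnip had fallen further at 1 h (-1.68) than at 6 h (-1.11), with a difference of 0.57 (edgeR adjusted p = 1.04e-07), while Slc2a2 had a log2 fold change near 0 at 1 h (0.02; difference -0.68). Grm2 had a log2 fold change of 0.67 at 1 h and -1.22 at 6 h, a difference of -1.90 (edgeR adjusted p = 1.05e-06).

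**Figure D5:**
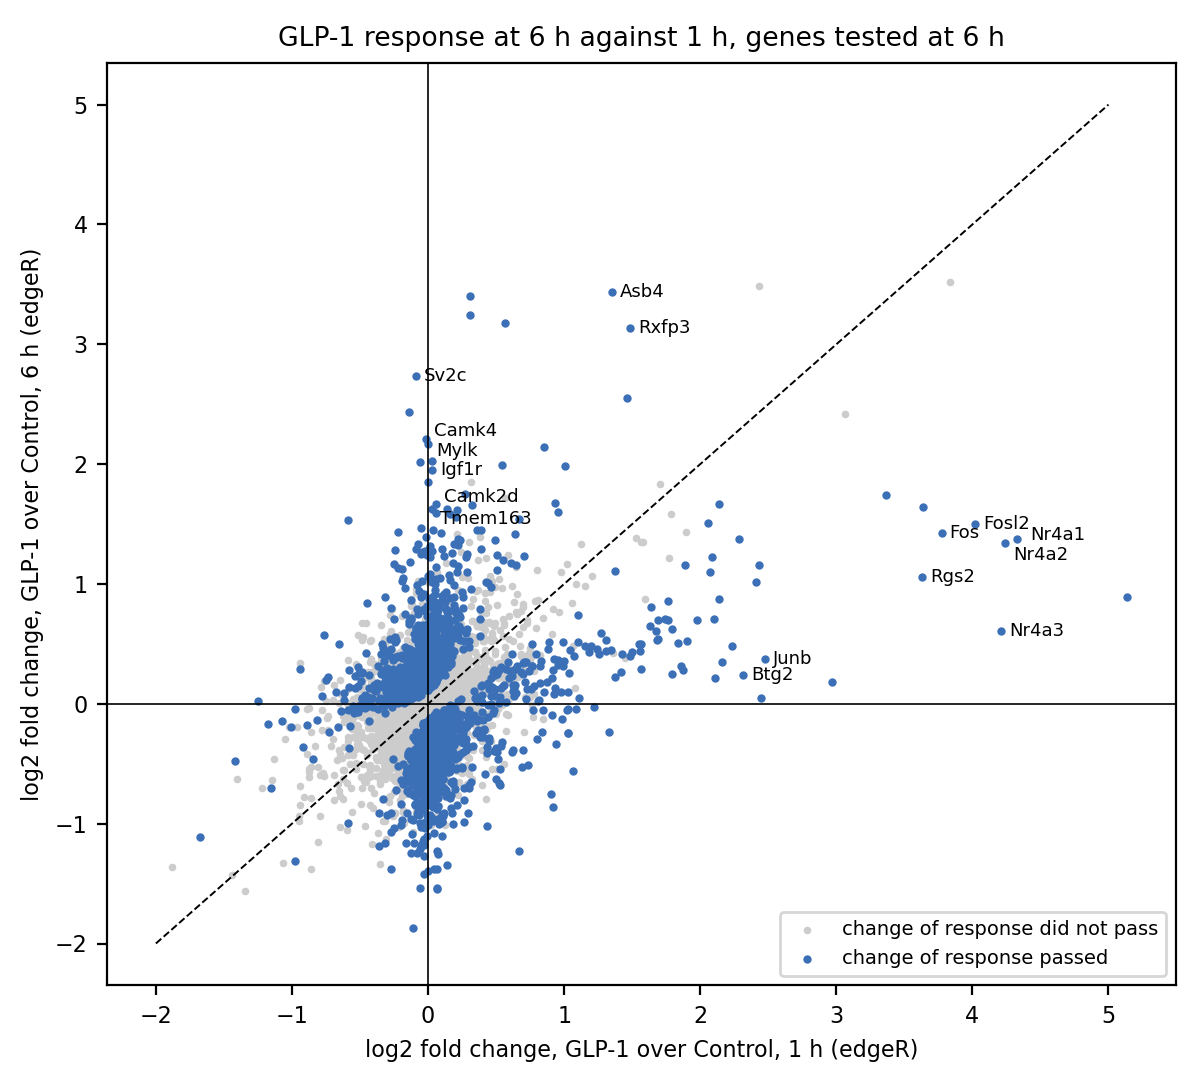
Log2 fold change of GLP-1 over Control at 6 h against that at 1 h for genes tested at 6 h (edgeR), with genes whose response differed between the times in blue and the line of equal response dashed. The named immediate early genes lie far to the right and below the line (Nr4a1 at 4.33 and 1.38), and the late genes lie close to the vertical axis (Camk4 at -0.02 and 2.21).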

How the data were processed

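RNA of INS-1 cells was sequenced with a kit that does not mark strand, so reads of overlapping genes on opposite strands cannot be told apart. The submitters' processing notes name TopHat2 2.0.12, Bowtie2 2.2.3.0, SAMtools 0.1.19.0, Subread, DESeq and DESeq2 1.6.3, with no role or order, and the rat build Rnor_5.0. The deposited table holds, per the file headers, normalised read counts of each library (a signal, counts divided by a size factor), a log2 fold change, and a p-value with its adjusted value, all made by the authors. By the authors' deposited table, genes called higher numbered 1722 and lower 1487, of 13157 with an adjusted p. Of the genes called here 3180 were called there in the same direction and 0 in the opposite one.

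The values of each library were whole multiples of 1 step (100% within a tolerance of 0.01), which returned the reads. The main test, limma 3.58.1 (trend, robust, R 4.3.3), ran on log2(normalised count + 1) where the mean reached 10, with Benjamini-Hochberg adjustment over all genes and a threshold of 0.05. Folds are on that scale and understate changes of low genes. The change from 1 h to 6 h was an interaction in edgeR 4.0.16 (quasi-likelihood) on the recovered reads of 16 libraries. On simulated data for the 6 h comparison limma recovered 73.1, 86.6 and 95.5% of genes changed 1.25-, 1.5- and 2-fold, with 7.10% false among its calls. For the interaction edgeR recovered 44.8, 83.6 and 93.9%, with 8.64% false. Both simulations gave all genes the same dispersion, changed only a small part of them and held no split between replicates. Their rates may therefore differ from those in these data. The counting floor covers counting error only.

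Same-numbered libraries of both groups deviated together, with correlations of 0.130, 0.149, 0.204 and 0.131 over genes. The highest correlation of each Control library with a GLP-1 library of another number was 0.120, 0.112, 0.077 and 0.084, so pair 1 was hardly set apart. How much of this comes from the split of replicates 1 and 2 from 3 and 4 was not tested. The numbers were taken to pair the libraries from the data and not the labels, and the fit without the block was the main one. No 2 libraries of a group agreed within sampling noise, but replicates 1 and 2, and replicates 3 and 4, came nearest to it. Their chi-square per degree of freedom was 1.30 and 1.49 in Control and 1.42 and 1.87 with GLP-1, and all other pairs had 3.04 to 4.29. The main fit took the 4 libraries of a group as independent, so its p-values do not allow for this grouping.

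The comparison and the 30 gene lists (1368 genes) were chosen with earlier results of these data known, so lists are described by counts and medians with no test. Named genes were the 20 largest increases and decreases with a mean of at least 50, a symbol and no overlap, the 10 largest gains and losses in reads, up to 4 called members of each list with the smallest p, 10 listed genes (Pcsk1 was not analysed here) and the 8 largest changes of response each way, 167 in all. Other list members are named after their values were seen, and a few genes are not reported here. Promoter windows are from RefSeq (GRCr8), the first of each symbol.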

Additional observations from a re-analysis of the deposited data

Results flagged for a closer look

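Of 340 sets of 4 libraries tested for a library far from the others, 6 stood out, and chance alone marks about 1 in 20. Mybbp1a was lowest in replicate 2 of Control (3079.1 normalised reads), Mylk in replicate 3 of Control (637.77), Kdr in replicate 1 of Control (16.754), Diras2 in replicate 4 of GLP-1 (192.8) and Mcf2l in replicate 1 of GLP-1 (4630.8), and Junb was highest in replicate 3 of Control (337.06). None of these 6 genes lost its call when that library was left out.

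The response to GLP-1 differed between 1 h and 6 h for 2341 genes by the edgeR interaction test. Among genes called at 6 h the largest differences above the 1 h response (log2) were Sv2c 2.83, Camk4 2.23, Mylk 2.17, Asb4 2.09, Igf1r 1.93, Rxfp3 1.66, Camk2d 1.61 and Tmem163 1.59. Those below it were Nr4a3 at -3.61, Nr4a1 at -2.95, Nr4a2 at -2.89, Rgs2 at -2.57, Fosl2 at -2.52, Fos at -2.35, Junb at -2.10 and Btg2 at -2.07.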

How the results depend on the processing

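The number of genes called at 6 h (4011) was 4009 and 4030 with pseudocounts of 0.5 and 5, 3812 with a mean of at least 50, 3775 with no filter, 4011 with TMM factors, 4418 with library totals, 4029 by edgeR and 3183 by DESeq2 (1.42.0), and 3870 and 3334 in replicates 1 and 2 or 3 and 4 alone. It was 3506 to 3752 without 1 library in turn. A fold of at least 1.5 left 684 genes (363 higher and 321 lower). With the replicate number as a block 5331 genes were called, including all 4011. The interaction count (2341) was 3415 with the replicate block, 2354 with library totals, 2302 with no filter, 1993 by DESeq2 and 2021 to 2287 without 1 library in turn.

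Of 167 genes chosen by the naming rule 159 kept direction and side of the threshold under every alternative run, and none reversed. Rpl13a, Rps16 and ENSRNOG00000007912 lost their call with library totals, Dnaja4 in replicates 1 and 2 alone, Krt7 in replicates 3 and 4 alone and without replicates 1 or 2 of Control or 3 or 4 of GLP-1, Map1b without replicates 3 or 4 of Control or 1 of GLP-1 (limma adjusted p of 0.0535 to 0.0613), and Rps16 without replicate 2 of Control (0.0502). Iapp gained one with the block and within each pair of replicates, and Ins2 with library totals. The block ended no call of a named gene. Over 1.5 times from the reported count were also ribosome biogenesis (15 higher) and oxidative phosphorylation (9 higher) in replicates 3 and 4 alone, oxidant defence (6 higher) in replicates 1 and 2 alone, the RGS list (4 lower by DESeq2 and in replicates 3 and 4 alone), the lysosome list (3 lower in replicates 3 and 4 alone) and heat shock genes (8 lower with library totals). Small counts moved as well and are not all given here. Heat shock genes that rose went from 1 to 6 in replicates 1 and 2 alone. With the replicate block, serine, one-carbon and asparagine synthesis went from 3 to 7 higher and oxidant defence from 2 to 7 lower. Lists whose small changes lie near the size of the scaling difference (a median shift of -0.05 on the log2 scale) depend most on that scaling.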
